A study of Saccharomyces cerevisiae with 12 samples.

Results

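Peak lists from yeast cells that carried the synthetic HPRT1 locus (synHPRT1) on a yeast artificial chromosome (YAC) were set against lists from cells that carried the same locus within chromosome XI. The 6 libraries of the forward synHPRT1 strains, 3 per format, were taken out of the 12 in the series by their labels, and every peak of their lists was used. The other 6 libraries carry HPRT1R, the reversed sequence, and appear only where a synHPRT1 region or gene was looked up in them. The 6 lists held 6709 of the 13746 peaks of the series, and 219 of the 6709 lay on the HPRT1 contig.

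Accessible DNA was mapped by ATAC-seq, whose enzyme, the Tn5 transposase, inserts adapters into DNA that is not wrapped up by nucleosomes. All 6 cultures were BY4741, a haploid laboratory strain of mating type a in which HIS3, LEU2, MET17 and URA3 are deleted. The YAC strains grew in SC-Leu, a defined medium without leucine, and the integrated strains in YPD, a rich medium. Format and medium therefore changed together in every comparison here and cannot be told apart. The labels do not say whether the replicates of a format were separate isolates, and the spread that p-values rest on may be technical.

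HPRT1 encodes hypoxanthine-guanine phosphoribosyltransferase, which salvages purine bases in human cells. Its sequence has no history in yeast, so any nucleosome-free stretch on it forms among the host's own proteins. In yeast such stretches usually lie upstream of genes, where transcription factors and chromatin remodellers keep promoters open. A peak from a culture cannot tell a site that is open in few cells from one that is less open in each cell.

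The lists held 1070, 1056 and 1098 peaks in YAC replicates 1 to 3, and 1113, 1029 and 1343 in integrated replicates 1 to 3. Integrated replicate 3 stood apart through its nuclear peaks, of which it had 1303 against 988 to 1072 in the other 5 libraries. Mating-type genes were looked up for promoters with a peak summit. STE2, the receptor for alpha-factor in a cells, had one in all 6 libraries, while STE3, the receptor for a-factor in alpha cells, had none. Of the 7 genes specific to a cells and the 4 specific to alpha cells, 4 and 3 had no promoter summit in any of the 6 libraries, and the 1 alpha gene with a summit, MF(ALPHA)2, had it in 1 YAC library. Of all 6002 protein-coding genes, 4227 had none either, so these counts do not identify a mating type. Read totals are not in the lists, so no counting interval is given.

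The construct carried more and wider peaks on the YAC. The contig held 51, 49 and 54 peaks in the YAC libraries and 22, 19 and 24 in the integrated libraries. That was 0.451 ± 0.0221 and 0.190 ± 0.0221 peaks per kb (mean ± SD, n = 3 each) over the 113.862 kb between the first and the last construct peak. Every YAC library lay above every integrated one. Relative to the 16 nuclear chromosomes of the same library, the density was 2.44 ± 0.04 on the log2 scale on the YAC and 1.04 ± 0.08 when integrated. The difference of 1.40, or 2.64-fold, had p = 0.1 in the exact two-sided permutation test, the smallest p that 3 libraries against 3 allow. No integrated library had a peak past contig position 100 kb, and the integrated strains may not carry that part. Before 100 kb alone the log2 difference was 1.24 (p = 0.1, exact permutation test).

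Peaks covered 24.7%, 27.2% and 24.0% of the construct in the YAC libraries. In the integrated libraries they covered 6.56%, 6.03% and 8.23%. The groups were again apart, and the log2 ratio of the construct's covered share to that of the chromosomes differed by 1.99, or 3.97-fold (p = 0.1, exact permutation test). Before contig position 100 kb alone this log2 difference was 1.68 (p = 0.1, exact permutation test). The longest gap between neighbouring construct peaks, with the ends of the contig left out, was 4.41, 5.93 and 5.25 kb on the YAC. It was 19.97, 20.4 and 14.9 kb in the integrated libraries. Chromosome XI itself, the host of the integrated locus, held 51, 52 and 59 peaks in YAC libraries and 55, 60 and 63 in integrated ones, and these ranges overlapped.

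The median width of a construct peak was 458, 518 and 368.5 bp on the YAC and 263, 317 and 367.5 bp when integrated. The narrowest YAC library and the widest integrated one differed by less than the spread within either format, although no values crossed. The log2 ratio to the median nuclear width was 0.53 ± 0.26 on the YAC and 0.06 ± 0.19 when integrated, a difference of 0.46 (p = 0.1, exact permutation test). Before contig position 100 kb alone this difference was 0.35 (p = 0.3, exact permutation test). Nuclear peaks had nearly the same median width in both formats, at 315, 302 and 306 bp in YAC libraries and 291.5, 294 and 313 bp in integrated ones (p = 0.3, exact permutation test). The widest construct peak reached 1973 to 3316 bp on the YAC and 957 to 1126 bp when integrated.

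**Figure D1:**
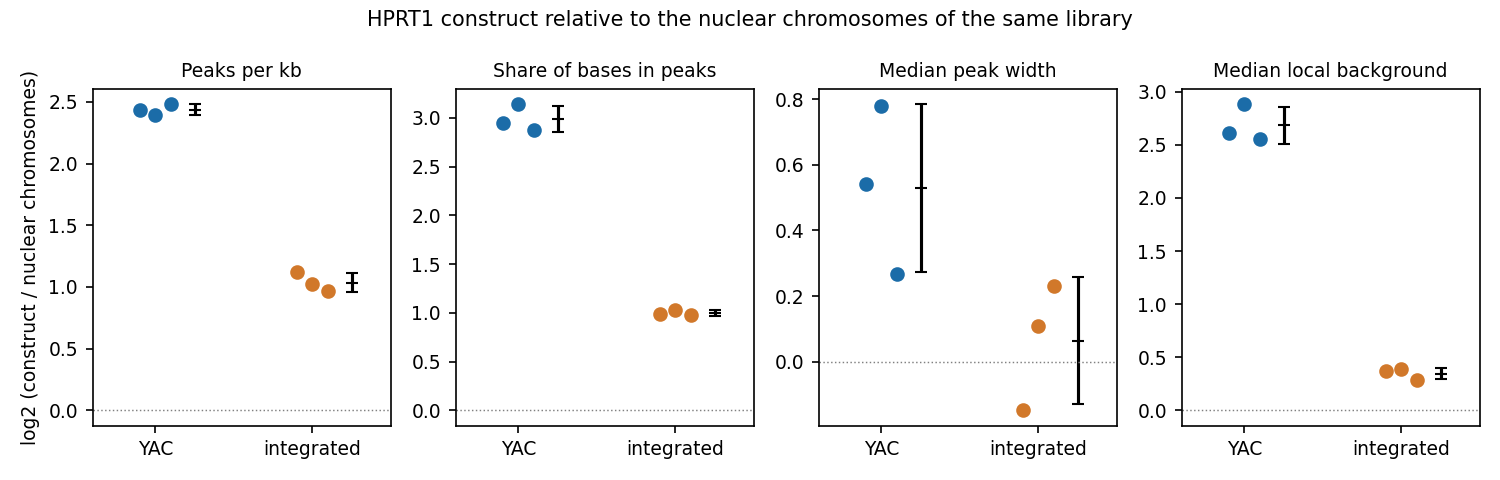
Each panel plots, per library, the log2 ratio of the construct to the nuclear chromosomes for 1 measure (points: libraries; black bars: mean ± SD of 3; dotted line: construct equal to chromosomes). The YAC libraries lie above the integrated ones in all 4 panels, with the smallest gap in peak width.

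Read depth on the construct moved with the format. The local background under construct peaks, recovered from the deposited fold enrichment and p-value of each peak, had a median of 35.2, 51.1 and 34.2 reads on the YAC. In the integrated libraries it was 8.65, 7.84 and 7.09 reads. Under nuclear peaks it was 5.75 to 6.93 reads in YAC libraries and 5.83 to 6.70 in integrated ones. The construct therefore stood at 6.46 ± 0.797 times the nuclear level on the YAC and at 1.27 ± 0.0486 times when integrated, with no overlap (log2 difference 2.34, p = 0.1, exact permutation test). That nuclear level is a value shared by nearly all format-specific nuclear regions of a library, and not a depth measured at each site.

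With more reads at a site, a peak caller can call a smaller enrichment. Of the authors' fold enrichments, the lowest on the construct was 1.55, 1.55 and 1.62 in the YAC lists. It was 2.09, 2.19 and 2.199 in the integrated lists, so construct peaks reached lower folds in every YAC list. The median summit pileup on the construct was 94, 114 and 90 reads on the YAC. Integrated constructs had 26, 24 and 26.5 reads, within or next to the 23 to 26 reads of nuclear peaks. The part that this depth has in the number and width of YAC peaks was not tested. When peaks under a 3-fold enrichment were left out, the contig held 17, 12 and 19 peaks on the YAC and 10, 8 and 15 when integrated, and these counts overlapped. Relative to nuclear peaks at that fold, the densities did not overlap and differed by 0.81 on the log2 scale (p = 0.1, exact permutation test). The YAC counts include peaks at 4 sites past contig position 100 kb, a part that the integrated strains may not carry. The 3-fold filter was not applied to the contig before 100 kb alone, so no difference without that part is given.

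Peaks were then joined by position into regions, each the union of overlapping peaks of the 6 libraries. The contig held 57 such regions. Of these, 12 had a peak in all 6 libraries, and 18 had one in all 3 YAC libraries and in no integrated library, which is 31.6% of the regions. A further 6 were in 3 YAC libraries and 1 integrated library, and 6 more in 3 and 2. No construct region was in 3 integrated and 0 YAC libraries. On the nuclear chromosomes, 6 of 1724 regions (0.348%) were in 3 YAC and 0 integrated libraries, and 11 (0.638%) had the opposite pattern.

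Nearly all integrated construct peaks overlapped YAC peaks. Of the 65 integrated construct peaks, 59 (90.8%) overlapped a peak in all 3 YAC lists and 1 overlapped none. Of the 154 YAC construct peaks, 36 (23.4%) overlapped a peak in all 3 integrated lists and 75 (48.7%) overlapped none. Nuclear peaks were closer to even, with 64.4% of YAC peaks in all 3 integrated lists and 53.0% of integrated peaks in all 3 YAC lists. The lone integrated peak outside the YAC set lay at contig positions 85952 to 86140 in integrated replicate 3, was 189 bp wide and had a fold enrichment of 2.80.

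**Figure D2:**
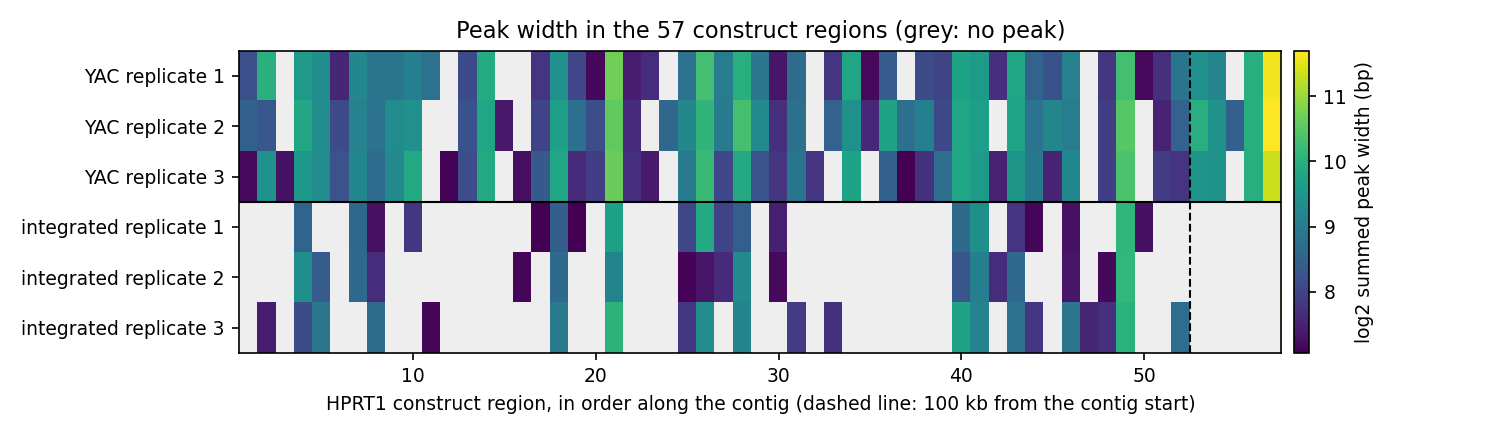
Each column is 1 of the 57 construct regions in contig order and each row a library, with the log2 of the summed peak width (bp) as colour and grey where no peak was called. The YAC rows are nearly filled, the integrated rows hold long grey runs, and none of the 5 regions past the dashed line has a peak in an integrated library.

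Of the 18 regions seen in YAC libraries alone, 14 lay before 100 kb and 4 past it. By the authors' fold enrichment, 5 of the 18 reached 3 in all 3 YAC lists: the 4 past 100 kb and the region at 55973 to 56856. That region, inside the long stretch with no integrated peak, had widths of 884, 670 and 861 bp and fold enrichments of 4.83, 3.59 and 4.93. Its summits in the 3 YAC lists lay within 108 bp of each other. Its fold was in the range of the 12 regions shared by all 6 libraries, whose YAC means ran from 2.205 to 4.72.

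The 4 regions past 100 kb began at 110609, 105599, 103859 and 100037 and ended at 113926, 106653, 104558 and 101046. The first of them was the widest region of the contig, with 3134, 3316 and 2555 bp in peaks and a fold enrichment of 4.54 ± 0.643 (n = 3). The others had fold enrichments of 3.92 ± 0.224, 3.59 ± 0.433 and 3.52 ± 0.394. Past 100 kb the YAC libraries held 5, 5 and 6 peaks and the integrated libraries 0. The sources used here do not say which sequence lies there or whether the integrated strains carry it. The median background there was 43.6, 59.5 and 37.6 reads on the YAC, against 33.1, 46.6 and 31.9 before 100 kb.

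The other 13 regions of the YAC-only group were weaker. The strongest of them lay at 45212 to 45825 (fold enrichment 2.66 ± 0.295, n = 3), 18131 to 18438 (2.62 ± 0.202), 59053 to 59901 (2.59 ± 0.243), 98297 to 98551 (2.45 ± 0.284) and 13194 to 13841 (2.34 ± 0.175). All 13 had a mean fold below 3, down to 1.76. The median of the YAC mean folds was 2.40, 2.42, 2.69 and 3.495 in regions with a peak in 0, 1, 2 and 3 integrated libraries. The 14 regions seen in only 1 or 2 YAC libraries had a median of 1.88.

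**Figure D3:**
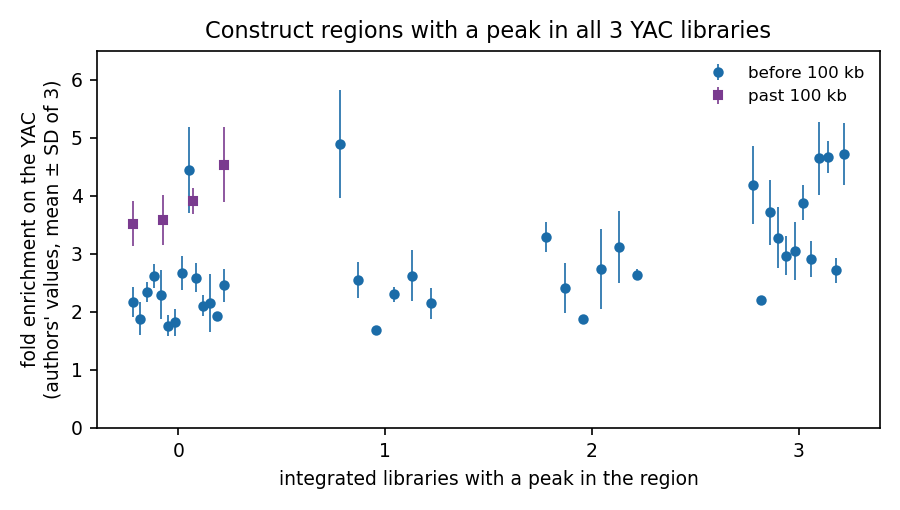
The authors' fold enrichment on the YAC (mean ± SD of 3 lists) is plotted for each of the 42 construct regions with a peak in all 3 YAC libraries, by how many integrated libraries had a peak there. Among regions with no integrated peak, those past 100 kb (squares) and 1 region before it lie above 3, and the other 13 lie below.

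The 12 regions with a peak in all 6 libraries allow widths to be compared at the same site. All 12 were wider on the YAC by their means, with ratios of 1.24 to 2.45 and a median of 1.92. In 11 of 12 (91.7%) every YAC width lay above every integrated width, and in 0 below. Among the 541 nuclear regions with a peak in all 6 libraries, 19 (3.51%) were wider in every YAC library and 43 (7.95%) narrower. Both sides of the construct peaks lay farther out on the YAC, by a median of 188.5 bp on the left and 147 bp on the right, in 12 of 12 regions each.

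At 76605 to 77509 the widths were 883, 872 and 732 bp on the YAC and 220, 401 and 453 bp when integrated. At 30241 to 31942 they were 1660, 1508 and 1598 bp against 834, 572 and 1072 bp. At 37671 to 38319, the region with the largest ratio, they were 449, 589 and 508 bp against 268, 139 and 224 bp. The formats did not overlap in any of these 3 regions. The smallest ratio was at 91714 to 93170, with 1274, 1449 and 1343 bp against 1112, 1126 and 1042 bp, and the region at 12331 to 12815 was the only one of the 12 to overlap, with 469, 453 and 410 bp against 155, 204 and 416 bp.

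The other 7 shared regions lay between these. The region at 43362 to 44710 had 1006, 1281 and 950 bp against 354, 608 and 563 bp, and that at 25187 to 26123 had 680, 828 and 894 bp against 347, 405 and 499 bp. The region at 4231 to 5149 had 764, 919 and 746 bp against 378, 661 and 278 bp, and that at 84300 to 84903 had 541, 518 and 602 bp against 154, 163 and 479 bp. Integrated widths varied most at 38578 to 39942, with 957, 162 and 651 bp against 1266, 1099 and 1184 bp on the YAC. The last 2 regions, at 68031 to 69015 and 69867 to 70677, had 858, 879 and 894 bp against 404, 317 and 851 bp, and 767, 811 and 769 bp against 664, 533 and 565 bp.

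The widths were tested with limma over all 553 shared regions, nuclear and construct, after each library's nuclear median had been subtracted. The 12 construct regions had a median log2 difference of 1.02 (range 0.35 to 1.38) and the 541 nuclear regions one of 0.01 with an SD of 0.35. None of the construct regions passed an adjusted p of 0.05 in limma, where their adjusted p ran from 0.172 to 0.678. At an unadjusted p under 0.05, limma counted 44 of the 553 regions, 33 of them nuclear and 11 on the construct. The largest construct difference was 1.38 with an SE of 0.55, at 38578 to 39942.

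**Figure D4:**
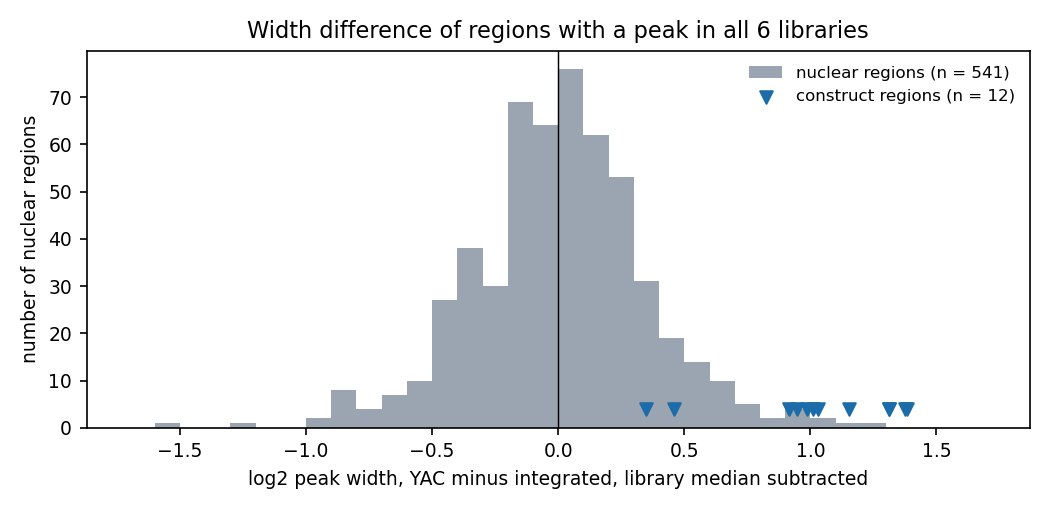
The histogram shows the log2 width difference (YAC minus integrated, each library's nuclear median subtracted) of the 541 nuclear regions with a peak in all 6 libraries, and triangles mark the 12 construct regions. The construct regions lie from 0.35 to 1.38, and the nuclear regions centre on 0.01.

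A single nuclear region (0.181% of the 553) passed in limma, and it was narrower in YAC libraries. It lies at chromosome IV, 1410845 to 1411476 (sacCer3), over the start of YDR476C and upstream of SNF1, the kinase that lets yeast use carbon sources other than glucose. The widths were 159, 162 and 202 bp in YAC libraries and 584, 409 and 632 bp in integrated libraries, with no overlap. The log2 difference was -1.58 with an SE of 0.20 and an adjusted p of 0.035 in limma. It did not pass in any of the 11 alternative fits.

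Summit positions within the shared regions were compared between libraries. The median distance between the summits of 2 libraries was 39.5 bp within the YAC format, 82 bp within the integrated format and 73.5 bp between formats, over 12 regions. In the 541 nuclear regions it was 72, 71 and 72 bp. On the construct, the distance between formats was thus above that among YAC libraries and below that among integrated libraries. Its values for single pairs of libraries ran from 25 to 140.5 bp. On the chromosomes it was the same as within formats.

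On the nuclear chromosomes, the 17 regions found in every library of 1 format and in none of the other were named after their values were seen. LEU2, which encodes beta-isopropylmalate dehydrogenase of leucine synthesis and is needed for growth in SC-Leu, was one of the 6 seen in YAC libraries alone. Its peaks (chromosome III, 91080 to 92376) were 598, 1297 and 465 bp wide, with fold enrichments of 3.85, 3.28 and 3.52. The integrated libraries had no peak at the gene. The same was true of the HPRT1R strains, with a peak in 3 of 3 YAC libraries and 0 of 3 integrated libraries. URA3, HIS3 and MET17, which BY4741 also lacks, had no peak in any library.

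The summit pileups at LEU2 were 25, 25 and 23 reads. The local background there, at 5.75, 6.93 and 5.82 reads, was the same as at the other 5 YAC-only regions of each library, so it gives no depth of its own for LEU2. The source of the reads assigned to LEU2 was not tested.

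The other 5 regions seen in YAC libraries alone were small, with mean widths of 253 to 374 bp and mean fold enrichments from 2.76 to 3.53. One lay over the box C/D small nucleolar RNA genes SNR72, SNR73 and SNR74 (chromosome XIII, 298183 to 298788), with 151, 274 and 463 bp, and was also in 3 of 3 HPRT1R YAC and 0 of 3 integrated libraries. The others lay upstream of SUP35, the translation release factor (IV, 807890 to 808225), upstream of PCL2, a cyclin (IV, 234266 to 234650), over the starts of OPI3 and MOG1 (X, 572854 to 573484), and over CRR1 upstream of TUB4, the gamma-tubulin gene (XII, 566459 to 567015). Of all 6, 4 were in more YAC than integrated libraries of HPRT1R strains, and 2 had the full 3 against 0.

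Of the 11 regions seen in integrated libraries alone, 4 overlapped a tRNA gene, against 213 of 1724 (12.4%) of all nuclear regions. These included IMT4, an initiator methionine tRNA gene beside VMA3, a subunit of the vacuolar proton pump (V, 100064 to 100795). Its peak was 175, 237 and 535 bp wide. Another region lay over the start of LSB5 and upstream of GRX1, a glutaredoxin (III, 61481 to 62061). A region on chromosome VIII (187693 to 188017) lay over the start of BCD1, a snoRNA assembly factor. It was also upstream of VMA10, another subunit of the proton pump. Further regions lay upstream of SKN7, a stress-response transcription factor (VIII, 512199 to 512397), and over SCC4, a cohesin loader (V, 463208 to 463625). Mean widths were 158 to 406 bp and mean folds 2.69 to 3.83. In the HPRT1R strains, 10 of the 11 were in more integrated than YAC libraries, and 3 had the full pattern. The lean of all nuclear regions in HPRT1R strains is not given, so the HPRT1R counts of both groups have no baseline. A peak overlapped 58.8% ± 5.68 of tRNA genes in HPRT1R integrated libraries and 47.4% ± 4.34 in HPRT1R YAC libraries.

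Leaving out any 1 of the 6 libraries raised these nuclear counts, to 9 to 21 regions seen in YAC libraries alone and 16 to 46 seen in integrated libraries alone. Without integrated replicate 3, the YAC-only count was 21.

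Promoter occupancy was measured as a summit between 500 bp upstream and 100 bp downstream of an annotated gene start. It was 14.01%, 14.4% and 14.6% of 6002 protein-coding genes in YAC libraries. It was 15.6%, 13.7% and 18.8% in integrated libraries, which overlapped the YAC range (p = 0.4, exact permutation test). In all, 298 genes had a promoter summit in all 6 libraries and 4227 in none. More YAC than integrated libraries had a summit at 489 genes (8.15%), and fewer at 708 (11.8%).

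A summit in 3 YAC and 0 integrated libraries was found at 10 genes (0.167%), and the opposite at 14 (0.233%). The YAC group held SUP35, TUB4, OPI3, a phospholipid methyltransferase, TRP3, a tryptophan synthesis enzyme, RRP40, a subunit of the RNA exosome, TIR3, a cell wall protein, SOM1, a subunit of a mitochondrial peptidase, YHL026C, and the overlapping Ty retrotransposon genes YOL103W-A and YOL103W-B. The last pair share 1 summit and belong to a repeated family, so their reads are uncertain. In the HPRT1R strains, 6 of the 10 leaned to the YAC, 2 leaned to the integrated format and 2 were equal. SOM1, with fold enrichments of 2.67, 2.52 and 2.64, had 3 against 0 there too, while OPI3 had 3 against 3.

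The integrated group held LSB5, SKN7, VMA10, BCD1, PDR11, a sterol uptake transporter, YIL012W, SFK1, TOS7, ALP1, a transporter of basic amino acids, MIR1, the mitochondrial phosphate carrier, UBA1, the ubiquitin-activating enzyme, and YPR127W. BRE4 and PTP1, a tyrosine phosphatase, share the weakest summit of the group. In the HPRT1R strains, 6 of the 14 leaned to the integrated format, 5 leaned to the YAC and 3 were equal. The lean of all genes in HPRT1R strains is not given, so the HPRT1R counts of both groups have no baseline. Omitting each of the 6 libraries in turn gave 14 to 30 and 22 to 60 genes in the 2 groups, the highest without YAC replicate 3 and without integrated replicate 2.

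Many of these differences lay in where the summit of a peak fell. With any overlap of a peak with the promoter in place of a summit, 3 of the 10 and 7 of the 14 still had the pattern. TRP3 and UBA1 are divergent neighbours on chromosome XI, and both promoters overlapped a peak in all 6 libraries. The YAC summits there, at 38340, 38583 and 38634, were on the TRP3 side of the integrated ones, at 38992, 38708 and 38815, with medians 232 bp apart. On chromosome IX, YAC summits lay at 333281, 333279 and 333306, upstream of TIR3. Integrated summits lay at 332933, 332786 and 332826, upstream of PDR11 and YIL012W, with medians 455 bp apart.

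Gene groups were compared by the share of their promoters with a summit, without a test, since the lists were drawn up with earlier results of these data known. Purine and one-carbon synthesis had 13.0% ± 6.42 of its 18 promoters occupied in YAC libraries and 27.8% ± 5.56 in integrated ones (n = 3 each). The libraries ranged from 5.56% to 16.7% and from 22.2% to 33.3%, and did not overlap. A summit was in more integrated libraries at 6 of its genes and in more YAC libraries at 1, against 11.8% and 8.15% of all genes. The same shares of all genes stand beside the counts of every list below. ADE8, a transformylase of the pathway, and SHM2, a serine hydroxymethyltransferase, each had 1 YAC and 3 integrated libraries, ADE12, adenylosuccinate synthase, had 0 and 2, and ADE17 was the gene with 1 and 0. In the HPRT1R strains, ADE8 had 2 and 3, SHM2 1 and 2, ADE12 2 and 2, and ADE17 0 and 1, and the list's share was 22.2% in each YAC library and 27.8% to 33.3% in integrated ones.

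The catabolism of nitrogen sources and serine gave 19.3% ± 8.04 and 33.3% ± 3.04 of 19 promoters, with 6 genes that had more integrated libraries and 1 that had more YAC libraries. The YAC range of 10.5% to 26.3% lay below the integrated range of 31.6% to 36.8%. CHA1, the serine deaminase that serine induces, had 0 and 2, and the urea transporter gene DUR3 and DAL3, a gene of allantoin breakdown, each had 1 and 3. Zinc and copper genes gave 29.6% ± 6.42 and 48.1% ± 6.42 of 9 promoters, again without overlap. The vacuolar zinc transporter gene ZRC1 and the copper transporter gene CTR1 each had 0 and 2. In HPRT1R strains CHA1, ZRC1, CTR1, DUR3 and DAL3 had 0 YAC libraries and 3, 3, 2, 1 and 2 integrated libraries. The shares there were 10.5% to 26.3% against 21.1% to 36.8% for nitrogen and serine, which overlapped, and 33.3% against 44.4% to 55.6% for zinc and copper, which did not.

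The iron regulon went the other way, with 26.3% ± 9.12 and 15.8% ± 0 of 19 promoters and 6 genes in more YAC libraries against 1. HMX1, a heme oxygenase, had 3 and 1, and FRE4, a ferric reductase, 2 and 0, while TIS11, which marks mRNAs of iron-using proteins for decay, had 0 and 2. The YAC libraries of this list ranged from 15.8% to 31.6%, so the formats touched. Among HPRT1R libraries, HMX1 had 3 and 3, FRE4 0 and 0 and TIS11 1 and 3. The list's share there ran the opposite way, with 15.8% to 21.1% in YAC and 21.1% to 31.6% in integrated libraries.

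Leucine and branched-chain synthesis, the pathway that SC-Leu demands, had 30.6% ± 9.62 of 12 promoters in each format, with 4 genes higher in YAC and 3 in integrated libraries. LEU2, which is deleted in BY4741, was among these 4, with 1 YAC and 0 integrated libraries. It is also counted in the YAC share. LEU4, which makes the first leucine-specific intermediate, had 0 and 2. Other amino acid synthesis gave 24.0% ± 3.46 and 32.7% ± 4.16 of 50 promoters, with 6 and 17 genes. HIS5, of histidine synthesis, and GLT1, the glutamate synthase, each had 0 and 2. LYS20, of lysine synthesis, and ARO4, of aromatic amino acid synthesis, each had 1 and 3. Amino acid permeases had 38.3% in both formats, where BAP2, a branched-chain permease, had 3 and 1 and ALP1 had 0 and 3. HPRT1R strains had the opposite direction for BAP2 (1 and 3), ALP1 (3 and 2) and LYS20 (3 and 1). HIS5 had 2 and 2 there, LEU4 1 and 2, GLT1 0 and 2, and ARO4 2 and 3.

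Histone genes had 60.0% ± 17.3 of 10 promoters in YAC libraries and 80.0% ± 10 in integrated ones, with 6 genes in more integrated and 0 in more YAC libraries. These 6 are the neighbours HTA2 and HTB2, HHT1 and HHF1, and HTA1 and HTB1, so they are not separate counts. Mean fold was 3.55 at both HTA2 and HTB2 and 3.52 at both HHT1 and HHF1. HPRT1R shares overlapped, with 90%, 60% and 60% in YAC and 80%, 90% and 80% in integrated libraries. The synHPRT1 ranges met at 70.0%. Ribosomal protein genes, which yeast transcribes at a high rate in growth, gave 58.0% ± 0.725 and 61.4% ± 4.37 of 138 promoters, and glycolytic and fermentation genes gave 61.7% in both formats. These last 3 lists were far above the 14.3% and 16.03% of all genes in either format. Integrated replicate 3 held the highest share of all genes, and also the highest share of the purine, nitrogen and zinc and copper lists. Without it the integrated means of these 3 lists were 25%, 31.6% and 44.4%.

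**Figure D5:**
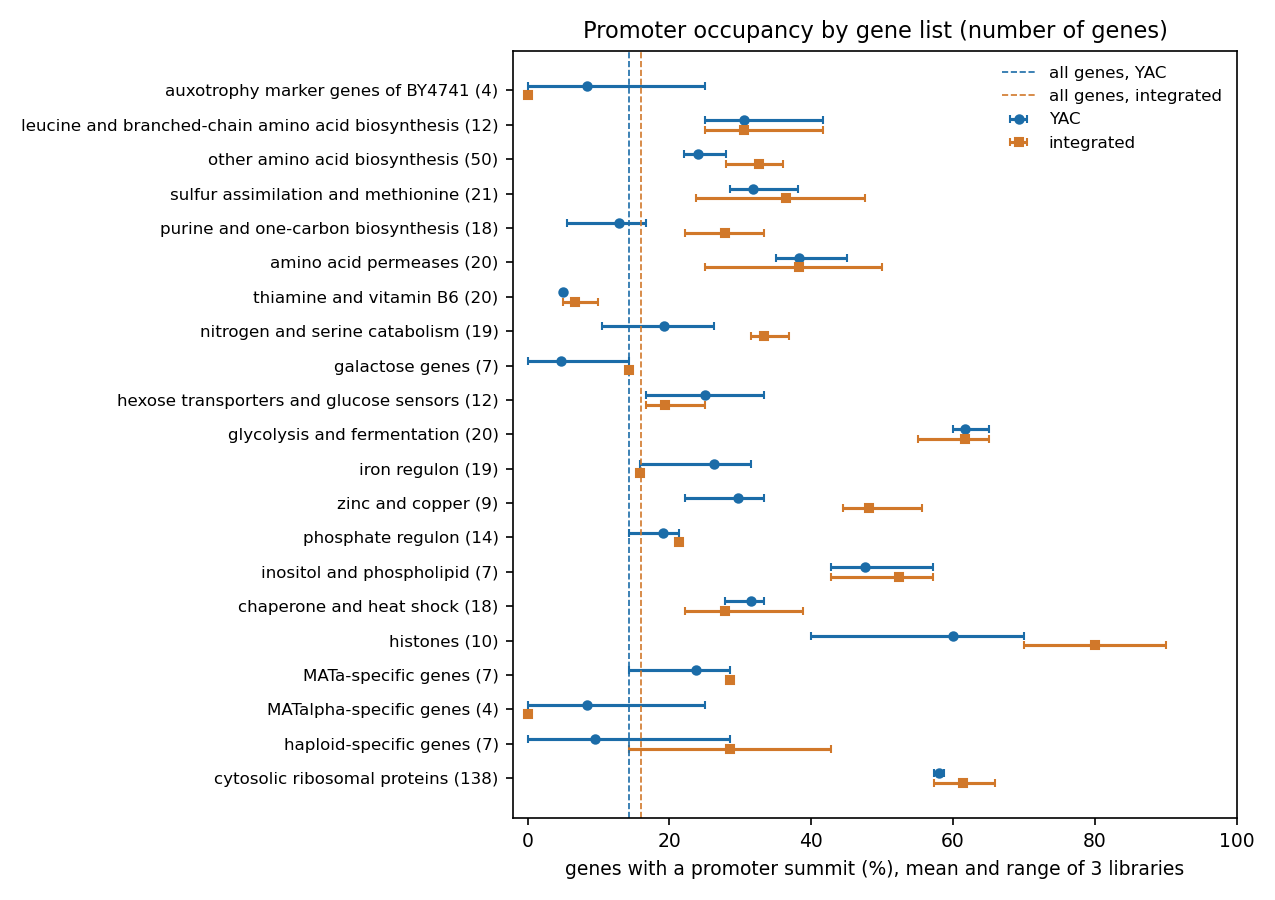
The share of promoters with a summit is plotted for the 21 gene lists, with the mean of 3 libraries as a point and their range as a bar (circles YAC, squares integrated, dashed lines all genes). The formats do not overlap for purine synthesis, nitrogen and serine catabolism, and zinc and copper, and in these 3 lists the integrated share is higher. The integrated mean of all genes is also higher. No test was made, and among 21 lists some can separate 3 libraries from 3 without any difference.

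Small RNA genes were looked at after their values had been seen. A peak overlapped 17, 16 and 18 of 76 snoRNA genes in YAC libraries and 11, 11 and 15 in integrated libraries. The formats did not overlap, and the shares of 22.4% ± 1.32 and 16.2% ± 3.04 differed with p = 0.1 in the exact permutation test. In the HPRT1R strains the shares were 17.1% ± 2.63 and 17.5% ± 2.74. Of 275 tRNA genes, 142, 123 and 136 lay under a peak in YAC libraries and 137, 122 and 173 in integrated ones (p = 0.8, exact permutation test). The high value was that of integrated replicate 3, and without it the YAC share was the higher by 1.52 percentage points.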

How the data were processed

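The files were MACS2 narrowPeak lists, 1 per library, as deposited by the authors. MACS2 2.1.0 and Bowtie2 2.2.9 are named in the submitters' processing notes, as are SAMtools 1.9 and the build sacCer3. The sources used here do not give peak-calling options or the handling of duplicates and multi-mapping reads. Each deposited row gave a position, a fold enrichment as a ratio to local background at the summit, and −log10 p and q values. The fold served for filters, ranks and descriptions inside a single list. The deposited score was not used. Per the labels' protocols, cells grew at 30 °C for 6 h to an OD near 0.6, and tagmentation took 30 min at 37 °C with 11 PCR cycles after it.

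Pileups and backgrounds were recovered from fold and p under the caller's Poisson model, within 0.01 in −log10 p, for all but 7 of 6709 peaks. Peaks of different libraries that overlapped were joined (gap 0 bp). Chromosome lengths were the last gene or peak ends, 12070.2 kb in all. Gene positions came from the RefSeq table of R64, with strand from systematic names, and 436 list members matched while 3 did not. Per-library measures were compared with exact two-sided permutation tests, and log2 widths of 553 shared regions with limma 3.58.1 (R 4.3.3) and Benjamini-Hochberg adjustment at 0.05, tested on simulated data. Other steps used Python 3.11.15 and scipy 1.17.1.

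The compared libraries, lists and regions were chosen with earlier results of these data known. Genes with a promoter summit in 3 against 0 libraries were named up to 12 per direction by their rank of fold within a list, and also where they belonged to a list. Marker and mating-type genes were named as well. BRE4, PTP1 and other list members were named after their values were seen. Alternatives were other peak filters, lists of equal length, other promoter windows and joins, the contig before 100 kb, other limma settings, a replicate block and the omission of each library.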

Additional observations from a re-analysis of the deposited data

Results flagged for a closer look

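Mitochondrial peaks, which lie outside the comparisons, numbered 18, 19 and 18 in YAC libraries and 19, 17 and 16 in integrated ones. They ranged from 16 to 19 and appear here because no comparison used them. Of 22 mitochondrial regions, 15 had a peak in all 6 libraries.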

How the results depend on the processing

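Of 181 recomputed values, 143 were counted as the same, 37 as moved and 1 as reversed. A per-library measure counted as the same if it kept its direction, whatever its size. Counts and the median width difference of construct regions had to stay close in size. Leaving out each library gave promoter share differences of -2.86 to -0.330 percentage points and nuclear peak number differences of -182.5 to -27.5. Construct density, covered share, width and background were higher on the YAC in every setting with a value. Leaving out each library gave log2 differences of 1.37 to 1.44, 1.91 to 2.04, 0.34 to 0.60 and 2.24 to 2.40. At −log10 q of at least 10, integrated libraries held 0, 2 and 1 construct peaks, so the first 3 measures had no value. The moves were all in counts of regions or promoters, since per-library measures could only keep or reverse their direction. At a fold of at least 3, the YAC-only construct regions were 5 and the integrated-only nuclear regions 19. At −log10 q of at least 10, the YAC-only nuclear regions were 1 and promoters 0, and with 300 bp upstream the YAC-only promoters were 5. Leaving out each library gave 9 to 21 and 16 to 46 nuclear regions and 14 to 30 and 22 to 60 promoters. Fewer libraries make 3 against 0 easier to meet. The region narrower in YAC libraries by limma fell to 0 without any 1 library (0 to 0), under the replicate block, with peaks joined within 200 bp, with no centring, with 12 libraries, and with trend and robust moderation; the cause was not tested. The tRNA share difference ranged from -7.76 to 1.52 percentage points, reversed without integrated replicate 3. Replicate numbers did not pair the libraries (correlations 0.025, 0.067 and 0.076). With the replicate block, the construct measures had p = 0.25, the smallest that an exact sign-flip permutation test of 3 pairs gives. Read totals are unknown. The small RNA alternatives and the gene list means without integrated replicate 3 were chosen after seeing the data.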
